A study of Mus musculus with 16 samples.

Results

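The 10 genes described here encode the receptors of interleukins 1, 18 and 6 and their nearest relatives: *Il1r1*, *Il1r2*, *Il1rap*, *Il1rl1*, *Il1rl2*, *Il18r1*, *Il18rap*, *Sigirr*, *Il6ra* and *Il6st*. They were picked by gene symbol from the 54347 genes of the table, and each symbol matched 1 gene. The receptors and the lists of related genes below were chosen with earlier results of these data known. Counts of called genes beside the share of all genes are therefore a description, not a test of the set. *Il18rap* entered the list because its genotype effect differs between cell types in these libraries, so its values are given as a description, without a test, and it is left out of every count of called receptors, which leaves 9. RNA was sequenced from bone marrow LSKs (lineage-negative Sca-1+ c-Kit+ cells, the compartment of stem and multipotent cells) and GMPs (granulocyte-monocyte progenitors, lineage-negative Sca-1- c-Kit+ Cd16/32+ cells). The genotypes were WT and URE, the latter a germline deletion, present in every cell of the mouse, of the upstream regulatory element of *Spi1*, the gene of the transcription factor PU.1. All mice were littermates on a C57BL/6 background, aged 8 to 12 weeks, and 4 libraries were made per genotype and cell type, 16 in all, from separate mice within a group. The comparisons ask how the receptor transcripts differ between genotypes within each cell type, between GMPs and LSKs within each genotype, and whether the genotype effect differs between the cell types.

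Receptors of the interleukin 1 family signal as pairs. A ligand-binding chain (IL1R1 for interleukin 1, ST2 encoded by *Il1rl1* for IL33, IL36R encoded by *Il1rl2* for IL36, IL18R1 for IL18) recruits an accessory chain (IL1RAP for the first group, IL18RAP for IL18), and the paired intracellular domains activate MyD88, IRAK kinases and NF-kappaB. IL1R2 binds interleukin 1 but lacks the signalling domain and acts as a decoy, and SIGIRR dampens signalling by the family. Interleukin 6 binds IL6RA, and the complex signals through gp130, encoded by *Il6st*, which other cytokines of that family share, to JAK kinases and STAT3. In bone marrow these cytokines are known to act on stem cells and myeloid progenitors during inflammation.

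Of the 10 genes, 6 are neighbours. In the order *Il1r2*, *Il1r1*, *Il1rl2*, *Il1rl1*, *Il18r1*, *Il18rap*, all on the plus strand, they fill 477627 bp of chromosome 1 (chr1:40074079-40551705, GRCm38, GENCODE M21), with 0 other protein-coding genes between them. Only 136 bp separate the end of *Il1rl1* from the start of *Il18r1*. The others lie apart, *Il1rap* at chr16:26581704-26730117 (plus strand), *Sigirr* at chr7:141091175-141100572 (minus strand), *Il6ra* at chr3:89864059-89913196 (minus strand) and *Il6st* at chr13:112464070-112510086 (plus strand). RefSeq (GRCm38.p6) gave 13 promoters of 300 bases (250 before to 50 after a start site) for 9 of the 10 genes. They were searched on both strands for GAGGAAG (a PU.1 core), TGTGGT (a RUNX core) and TGACTCA (AP-1), motifs that share no overlapping match in the promoters shown. The promoters of *Il18rap* (chr1:40515112-40515411), *Il18r1* (start site 3 of 3, chr1:40465756-40466055), *Il1r1* (start site 1 of 2, chr1:40224830-40225129), *Il1r2* (chr1:40085843-40086142), *Il6st* (chr13:112463820-112464119) and *Il6ra* (chr3:89913147-89913446, minus strand, the others plus) are printed 5′ to 3′. They are those of the 5 receptors called between genotypes in either cell type in the unpaired or the blocked fit, and of *Il18rap*, and capitals mark motif matches:
Il18rap: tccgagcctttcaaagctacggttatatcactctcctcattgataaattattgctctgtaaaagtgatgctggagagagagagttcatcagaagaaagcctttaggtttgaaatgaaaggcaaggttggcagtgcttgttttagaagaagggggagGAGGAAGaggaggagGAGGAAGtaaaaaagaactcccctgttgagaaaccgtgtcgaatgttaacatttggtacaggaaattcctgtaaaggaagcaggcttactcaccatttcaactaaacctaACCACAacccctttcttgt
Il18r1: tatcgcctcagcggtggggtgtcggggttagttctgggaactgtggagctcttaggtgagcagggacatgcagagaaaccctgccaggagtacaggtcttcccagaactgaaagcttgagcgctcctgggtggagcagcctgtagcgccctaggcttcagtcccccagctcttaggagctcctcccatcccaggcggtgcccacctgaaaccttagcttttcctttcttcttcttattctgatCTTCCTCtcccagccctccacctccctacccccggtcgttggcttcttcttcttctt
Il1r1: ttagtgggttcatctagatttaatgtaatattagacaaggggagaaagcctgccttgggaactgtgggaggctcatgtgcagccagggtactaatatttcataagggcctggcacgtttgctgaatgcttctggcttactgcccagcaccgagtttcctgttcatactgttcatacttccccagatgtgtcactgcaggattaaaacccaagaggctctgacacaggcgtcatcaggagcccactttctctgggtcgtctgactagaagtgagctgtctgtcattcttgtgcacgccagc
Il1r2: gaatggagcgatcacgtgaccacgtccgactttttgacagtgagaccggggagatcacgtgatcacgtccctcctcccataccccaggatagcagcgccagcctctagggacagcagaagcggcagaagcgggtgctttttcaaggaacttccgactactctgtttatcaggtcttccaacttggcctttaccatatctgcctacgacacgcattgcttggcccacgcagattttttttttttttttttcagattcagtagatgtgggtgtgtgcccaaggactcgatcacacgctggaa
Il6st: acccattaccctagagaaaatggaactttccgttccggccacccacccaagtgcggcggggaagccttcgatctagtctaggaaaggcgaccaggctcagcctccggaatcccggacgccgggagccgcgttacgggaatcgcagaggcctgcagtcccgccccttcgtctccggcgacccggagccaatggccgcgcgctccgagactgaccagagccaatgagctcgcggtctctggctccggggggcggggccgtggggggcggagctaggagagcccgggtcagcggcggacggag
Il6ra: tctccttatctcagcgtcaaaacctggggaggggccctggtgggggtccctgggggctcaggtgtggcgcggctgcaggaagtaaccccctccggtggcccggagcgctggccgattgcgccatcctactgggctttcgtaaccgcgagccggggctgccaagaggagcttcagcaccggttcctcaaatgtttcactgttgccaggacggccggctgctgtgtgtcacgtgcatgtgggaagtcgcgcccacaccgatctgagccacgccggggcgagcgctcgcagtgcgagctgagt

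The PU.1 letters occurred in 2 of the 13 promoters, in *Il18rap* as a pair of matches that start 94 and 79 bases before the start site and in *Il18r1* as 1 match on the other strand. The *Il18r1* promoter printed, at start site 3, is the one with this match. Those at start sites 1 and 2 held no PU.1 letters, and the one at site 2 held 1 RUNX match. The PU.1 letters occur in 13.6% of 32851 mouse promoters of this length. The RUNX letters were found in 4 of the 13, among them the *Il18rap* promoter shown, against 16.8% of all promoters, and the AP-1 letters in 0 of the 13, against 5.2%. A match says only that these letters stand in the window.

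The targeted gene was low in every URE library. *Spi1* read 124 ± 40.0 CPM (counts scaled to library size, mean ± SD, n = 4) in WT LSKs and 3.02 ± 1.42 in URE LSKs, and 139 ± 40.5 in WT GMPs and 21.3 ± 5.96 in URE GMPs. The edgeR quasi-likelihood test with Benjamini-Hochberg adjustment over all genes gave log2 fold changes of -5.39 (SE 0.47, adjusted p = 0.000266) and -2.73 (SE 0.30, adjusted p = 0.00095). Libraries held 20028302 to 29128858 counts. The marker genes followed the sort labels: the summed level of 6 GMP markers (*Mpo*, *Elane* and others) was 695 to 1600 CPM in LSKs, 54965 to 70413 in WT GMPs and 73743 to 160126 in URE GMPs, and 6 LSK markers summed to 1475 to 3140 in LSKs and 301 to 1327 in GMPs. The GMP marker sums of the genotypes thus did not overlap in GMPs, where 1 of the 6 was called higher in URE and 5 once replicate number entered as a block (edgeR), and their part in the receptor values of GMPs was not tested. The gate genes moved as well, *Fcgr3* (the CD16 chain of the GMP gate) being higher in URE GMPs (log2 1.34, SE 0.32, adjusted p = 0.0326, edgeR) and *Fcgr2b* (CD32) lower in URE LSKs (log2 -4.77, SE 0.78, adjusted p = 0.0064, edgeR), while *Kit* did not pass the test in either. *Fcgr2b* was at 0 to 1.03 CPM in URE LSKs, so the size of that fall rests on values near the floor. With the replicate block *Fcgr2b* was also lower in URE GMPs (log2 -0.89, adjusted p = 0.0215, edgeR). Replicates 1 and 4 differed from 2 and 3 for some receptors, with the values given beside them, and Y-linked transcripts were high in the WT libraries numbered 1 to 3 and the URE libraries numbered 1 of both cell types (log2 CPM 7.74 to 8.49) and at 0.00 to 0.45 in the others, so sex was uneven over the genotypes. URE LSK replicate 3 stood apart in 8 erythroid and megakaryocyte markers, at a sum of 542 CPM against 29.5, 20.2 and 33.7 in the other URE LSKs, of which *Ppbp* made up 355 CPM, and receptor values that rest on this library are given without it. In sorted bulk RNA, fewer cells that carry a transcript and less transcript per cell cannot be told apart.

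In LSKs, loss of the element went with lower levels of the interleukin 1, 18 and 6 binding chains: *Il1r1*, *Il18r1* and *Il6ra* fell, and the other 6 receptors tested did not pass, of which *Il1r2* passed with the replicate number as a block. The call required an adjusted p under 0.05 and more than 1.5-fold. All 10 receptors passed the filter on low counts, and 3 of the 9 counted were lower, beside 3.76% of 15154 genes called lower (2.38% higher, 6.14% in either direction). The same 3 had genotypes whose CPM ranges did not overlap, which held for 12.6% of all genes, and the median log2 fold change of the 9 was -0.67 against 0.00 over all genes. In GMPs *Il1r2* rose and *Il1r1* and *Il6st* fell, 1 and 2 of the 8 counted receptors that passed the filter, beside 4.67% of 13829 genes called higher and 3.63% lower (8.3% in either direction). *Il1r2* met the filter there only with its URE libraries, where it was high. Non-overlapping genotypes were found for 3 of the 8, beside 14.8% of all genes, and the median of the 8 was 0.02 against 0.01. With the replicate block 4 of the 9 were lower in LSKs, beside 5.62% of genes (9.46% in either direction), and 1 of the 8 was higher and 3 lower in GMPs, beside 9.52% and 6.82% (16.3% in either direction).

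**Figure D1:**
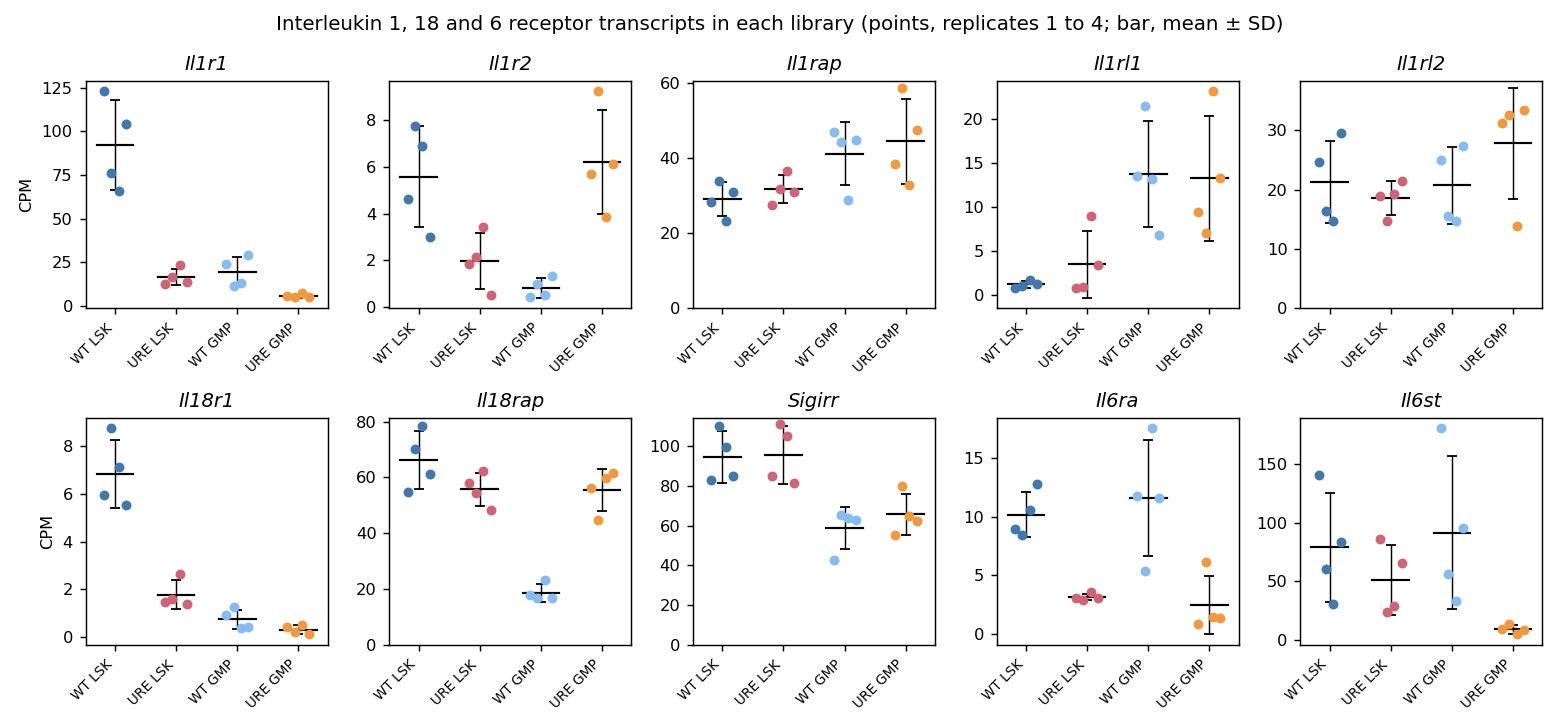
Level of each receptor transcript in CPM (vertical axis, starting near 0) in the 4 groups, with 1 point per library (replicates 1 to 4 from left to right) and a bar for mean ± SD of 4 libraries. *Il1r1* is highest in WT LSKs (65.9 to 123 CPM), *Il1r2* is low in WT GMPs (0.433 to 1.3 CPM) and *Il6st* is low in URE GMPs (4.56 to 13.6 CPM).

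*Il1r1*, the signalling receptor of interleukin 1, was at 123, 76.3, 65.9 and 104 CPM in WT LSKs (replicates 1 to 4) and at 12.6, 16.3, 23.1 and 13.4 CPM in URE LSKs. Every URE library was below every WT library, 5.74-fold lower in the fit (log2 -2.52, SE 0.28, adjusted p = 0.000925, edgeR with Benjamini-Hochberg adjustment). In GMPs it stood at 23.6, 11, 12.7 and 29 CPM in WT and at 5.3, 4.75, 7.07 and 5.12 CPM in URE. The genotypes again did not overlap, with a log2 fold change of -1.78 (SE 0.35, adjusted p = 0.0133, edgeR), and without URE GMP replicate 4 the adjusted p was 0.0506 (3.4e-05 to 0.406 over 17 alternatives). The fall was present in both replicate sets, at -3.11 in replicates 1 and 4 and -1.86 in 2 and 3 in LSKs, and -2.31 and -1.02 in GMPs. From LSKs to GMPs the level dropped in both genotypes, by 2.28 on the log2 scale in WT (SE 0.36, adjusted p = 0.00174, edgeR) and by 1.60 in URE (SE 0.28, adjusted p = 0.00403, edgeR). URE LSKs (16.4 ± 4.80 CPM) were thus near WT GMPs (19.1 ± 8.65 CPM), and the genotype effects in the cell types differed by 0.72 (adjusted p = 0.608, edgeR), which did not pass the test.

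*Il1r2*, the interleukin 1 decoy, had genotype effects of opposite sign in the 2 cell types. WT LSKs held 4.64, 7.75, 6.91 and 2.98 CPM and URE LSKs 1.83, 2.15, 3.41 and 0.501 CPM. URE was lower than WT in 4 of 4 same-numbered pairs, but the groups overlapped, and the log2 fold change of -1.53 (SE 0.55) did not pass the unpaired test (adjusted p = 0.185, edgeR). With the replicate number as a block it was -1.68 and passed (adjusted p = 0.0196, edgeR). WT GMPs held 0.433, 0.996, 0.488 and 1.3 CPM, which are 10 to 25 counts per library, and URE GMPs 5.69, 9.24, 3.84 and 6.13 CPM, 75 to 177 counts. All URE GMPs were above all WT GMPs, 7.67-fold in the fit (log2 2.94, SE 0.44, adjusted p = 0.00398, edgeR), with 2.83 in replicates 1 and 4 and 2.94 in 2 and 3. Fitted with replicates 2 and 3 alone, the value was 3.09 and the call was lost (adjusted p = 0.137, edgeR). The adjusted p ran from 2.92e-09 to 0.137 over 17 alternatives. *Il1r2* met the filter on low counts in every URE GMP but not in every WT GMP. It thus entered this comparison through the URE GMPs, where it was high, and no support is drawn from this call. Between cell types, *Il1r2* fell 6.98-fold from LSKs to GMPs in WT (log2 -2.80, SE 0.47, adjusted p = 0.00243, edgeR). It met the filter of that comparison only with its LSK libraries, where it was high, and no support is drawn from the call. In URE it went from 1.97 ± 1.19 to 6.22 ± 2.24 CPM, without overlap, at log2 1.61 (SE 0.53, adjusted p = 0.0577 without and 0.0287 with the replicate block, edgeR). Without URE LSK replicate 3 it was 2.06 (adjusted p = 0.0305, edgeR).

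The difference between the genotype effects on *Il1r2*, GMP minus LSK, was 4.44 on the log2 scale (SE 0.74, adjusted p = 0.00868, edgeR). It was the only one of the 9 receptors to pass this test, beside 1.22% of 15935 genes (0.866% with a positive difference). With only replicates 1 and 4 the difference was 4.49 (adjusted p = 0.0733) and with only 2 and 3 it was 4.53 (adjusted p = 0.353), so its size was alike in both sets while the call was lost in either. Markers of maturing neutrophils, a cell type that carries IL1R2, moved with it in GMPs: 11 markers summed to 90.6, 166, 174 and 70.5 CPM in WT and 255, 880, 1032 and 510 CPM in URE. Of the 9 markers tested, 3 were called higher in URE GMPs (*Ngp*, *Lcn2*, *Retnlg*; 6 with the replicate block) and 1 lower (*Mmp8*), and *Ly6g* was at most 0.47 CPM in any library. In LSKs the same sum was 38.4 to 183 CPM in WT and 179 to 364 in URE, higher where *Il1r2* was lower, with 1 of 8 markers called higher (4 with the block). The part of these cells in the *Il1r2* values was not tested.

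*Il1rap*, the accessory chain shared by the interleukin 1, IL33 and IL36 receptors, passed none of the unpaired tests. Its group means ran from 29.1 ± 4.60 CPM in WT LSKs through 31.7 ± 3.76 in URE LSKs and 41.2 ± 8.36 in WT GMPs to 44.5 ± 11.3 in URE GMPs. URE against WT gave log2 0.10 in LSKs (SE 0.19, adjusted p = 0.935, edgeR) and 0.10 in GMPs (SE 0.23, adjusted p = 0.873, edgeR). The sign of the latter flips to -0.10 with replicates 1 and 4 alone. GMPs against LSKs in WT was 0.49 (SE 0.21, adjusted p = 0.114, edgeR), higher in 4 of 4 pairs. It had an adjusted p of 0.00591 with the replicate block but stayed under 1.5-fold (log2 0.48), and it was called without WT GMP replicate 3 (log2 0.67, adjusted p = 0.0263, edgeR). *Sigirr*, the inhibitory member, was likewise close between genotypes, with 94.6 ± 12.9 and 95.5 ± 14.5 CPM in WT and URE LSKs and 58.8 ± 10.7 and 65.7 ± 10.5 CPM in the GMPs. It fell 1.62-fold from LSKs to GMPs in WT (log2 -0.70, SE 0.19, adjusted p = 0.022, edgeR), a call that was lost when WT GMP replicate 1, WT GMP replicate 2 or WT LSK replicate 2 was left out (log2 -0.75 to -0.52 over all such fits). In URE the log2 fold change was -0.58 (SE 0.17, adjusted p = 0.0398, edgeR), at the 1.5-fold threshold and not beyond it. It was called with a filter on an average of at least 1 log2 CPM (-0.62, adjusted p = 0.03, edgeR). Without URE GMP replicate 2 it was called as well (-0.67, adjusted p = 0.045, edgeR).

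*Il1rl1* (ST2, the IL33 receptor) was a GMP transcript. WT LSKs held 0.896, 1.11, 1.76 and 1.25 CPM and WT GMPs 13.6, 21.5, 13.2 and 6.84 CPM. Every GMP library was higher, 10.9-fold in the fit (log2 3.45, SE 0.40, adjusted p = 0.000395, edgeR). URE LSKs were uneven, at 0.818, 0.993, 9.01 and 3.43 CPM, with replicate 3 within the range of GMPs, and URE GMPs held 9.49, 7.15, 23.2 and 13.3 CPM. The rise from LSKs to GMPs in URE was 1.86 (SE 0.76) and did not pass the unpaired test (adjusted p = 0.113), but it was 2.32 and passed with the replicate block (adjusted p = 0.00212, edgeR), and without URE LSK replicate 3 it was 2.94 (adjusted p = 0.0165). Between genotypes the log2 fold change was 1.47 in LSKs (SE 0.74, adjusted p = 0.408, edgeR, and 0.44 without URE LSK replicate 3) and -0.05 in GMPs (SE 0.44, adjusted p = 0.972, edgeR), the latter with a sign that flips to 0.14 in replicates 1 and 4 alone.

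Markers of mast cells and basophils, which carry ST2, were higher in GMPs than in LSKs as a sum, though not each of them. The 10 markers summed to 77.1 to 161 CPM in WT LSKs, 137 to 269 in URE LSKs, 1171 to 1692 in WT GMPs and 1149 to 2627 in URE GMPs. In GMPs against LSKs of URE mice 4 of the 9 markers tested were called higher, and *Cma1* and *Tpsb2*, both mast cell proteases, were called lower, from 18.2 ± 19.6 to 0.664 ± 0.948 CPM and from 21.6 ± 20.6 to 0 CPM (edgeR). By library, the URE LSKs summed to 269, 137, 244 and 261 CPM, of which *Gata2* alone made up 163, 20.4, 31.2 and 79 CPM. *Cma1* (6.9, 0.927, 19.9 and 45.1 CPM), *Tpsb2* (6.7, 2.05, 32.9 and 44.9 CPM) and *Fcer1a* (0.039, 0.232, 2.27 and 2.72 CPM) were highest in replicates 3 and 4, the libraries in which *Il1rl1* was highest. *Cpa3* was highest in replicate 3 (146 CPM against 62.3 to 83.0), and *Mcpt8* was lowest there (9.01 CPM). In URE GMP replicates 1, 3 and 4 the sum was above all WT GMPs (1851 to 2627 CPM), and the *Il1rl1* values of the genotypes overlapped. In URE GMPs *Ms4a2* (log2 -2.92) and *Prss34* (log2 -2.42) were called lower than in WT and *Mcpt8* (log2 1.48) higher (edgeR). *Mcpt4* was at 0 in all GMPs and *Tpsb2* at 0 in URE GMPs. Their part in the *Il1rl1* values was not tested. *Il1rl2*, the IL36 receptor, lay between group means of 18.6 ± 2.84 CPM (URE LSKs) and 27.8 ± 9.34 CPM (URE GMPs) and passed none of the 5 edgeR tests, its smallest adjusted p being 0.233 for GMPs against LSKs in URE (log2 0.53), which became 0.0328 (log2 0.76) without URE GMP replicate 3.

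**Figure D2:**
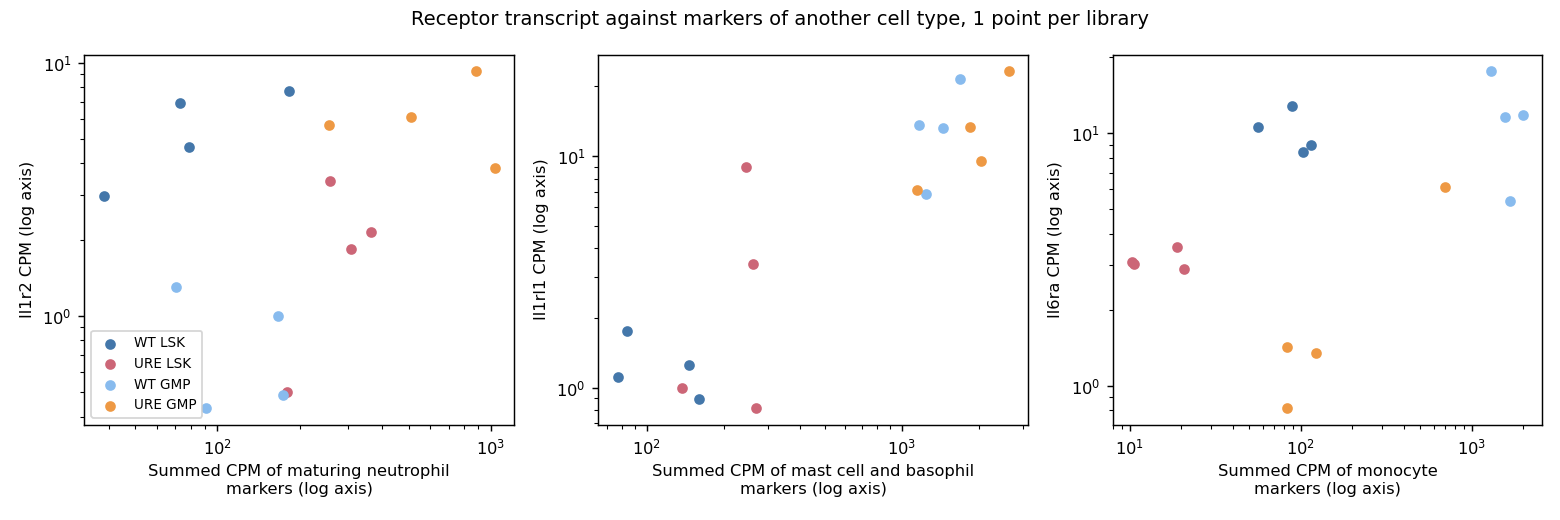
CPM of *Il1r2*, *Il1rl1* and *Il6ra* (vertical log axes) against the summed CPM of markers of maturing neutrophils, mast cells and basophils, and monocytes (horizontal log axes), 1 point per library and 1 colour per group. URE GMP replicate 2 stands apart in the monocyte panel, with 700 CPM of monocyte markers and 6.16 CPM of *Il6ra*.

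*Il18r1* and *Il18rap*, the chains of the IL18 receptor, lie next to each other. In WT mice every GMP library was below every LSK library for both, while in URE LSKs against WT they read -1.97 and -0.28 on the log2 scale and in URE GMPs against URE LSKs -2.49 and -0.05. *Il18r1*, the binding chain, was at 5.96, 8.75, 7.1 and 5.52 CPM in WT LSKs and 1.48, 1.59, 2.65 and 1.38 CPM in URE LSKs. The genotypes did not overlap, with a 3.92-fold fall (log2 -1.97, SE 0.33, adjusted p = 0.00746, edgeR) of like size in replicates 1 and 4 (-1.94) and 2 and 3 (-1.90). With Y-linked transcripts as a covariate it was -1.92 (adjusted p = 0.0544, edgeR, and 1.15e-07 to 0.143 over 17 alternatives), and without URE LSK replicate 3 it was -2.23 (adjusted p = 0.00409, edgeR). In GMPs it was near the floor, with 21, 30, 8 and 8 counts in WT and 9, 4, 10 and 2 counts in URE, and it was removed there by the filter. An exact two-sided permutation test of log2 CPM gave p = 0.171 for the GMPs, where 4 against 4 libraries can give no p below 0.0286. GMPs against LSKs read -3.20 in WT (SE 0.42, adjusted p = 0.000793, edgeR) and -2.49 in URE (SE 0.54, adjusted p = 0.0104, edgeR). *Il18r1* passed the filter of these 2 comparisons through its LSK counts alone. Both sizes rest on GMP counts near the floor, and no support is drawn from these calls.

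*Il18rap*, the accessory chain, was at 54.7, 70.4, 78.3 and 61.4 CPM in WT LSKs and 57.9, 54.6, 62.2 and 48.2 CPM in URE LSKs. WT GMPs held 17.9, 16.6, 23.4 and 16.8 CPM and URE GMPs 56.2, 44.7, 59.7 and 61.5 CPM. Only the WT GMPs were low, below every other library, while URE GMPs (55.5 ± 7.56 CPM) lay at the level of URE LSKs (55.7 ± 5.89 CPM). The fitted log2 fold changes, given as a description, were -0.28 (SE 0.18) for URE against WT in LSKs, 1.56 (SE 0.21) in GMPs, and -1.83 (SE 0.20) and -0.05 (SE 0.17) for GMPs against LSKs in WT and URE. The difference between the genotype effects, the value for which the gene was chosen, was 1.82 (SE 0.24), and 1.83 (SE 0.19) with the replicate block. Markers of T, NK and innate lymphoid cells, in which IL18RAP is known, summed over 10 genes to 194 to 359 CPM in WT LSKs, 350 to 494 in URE LSKs, 573 to 982 in WT GMPs and 1407 to 2252 in URE GMPs. Nearly all of the sum in GMPs was *Nkg7* (562 to 975 CPM in WT and 1348 to 2225 in URE), and *Cd3e* was at 0 in URE LSKs and all GMPs. Other markers of the list ran differently from the sum. *Trbc2*, *Klrb1c*, *Gata3* and *Rora*, 4 of the 6 markers tested, were lower in GMPs than in LSKs of WT, as *Il18rap* was. *Gata3* (5.28, 4.32, 2.93 and 10.2 CPM in WT GMPs and 46, 19.4, 42.4 and 34.2 in URE GMPs, log2 2.65, adjusted p = 0.00547, edgeR) and *Rora* (log2 1.28, adjusted p = 0.0442, edgeR) were called higher in URE GMPs, as *Nkg7* was. In LSKs, where *Il18rap* read -0.28, *Gata3* was also called higher in URE (log2 1.15, adjusted p = 0.00225, edgeR) and *Thy1* lower (log2 -4.35, adjusted p = 0.0246, edgeR), and in GMPs *Thy1* read -1.32 and did not pass. *Thy1* was at 0 to 0.376 CPM in URE LSKs, near the floor. The part of T, NK and innate lymphoid cells in the *Il18rap* values was not tested.

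*Il6ra*, the binding chain of the interleukin 6 receptor, was at 9, 8.42, 10.6 and 12.8 CPM in WT LSKs and 3.04, 2.91, 3.54 and 3.09 CPM in URE LSKs. The groups did not overlap and the fall was 3.31-fold (log2 -1.73, SE 0.25, adjusted p = 0.00375, edgeR), while a joint fit of all 16 libraries gave -1.70 with an adjusted p of 0.0567 (2e-10 to 0.194 over 17 alternatives). WT GMPs held 11.8, 5.4, 17.6 and 11.6 CPM and URE GMPs 0.819, 6.16, 1.43 and 1.35 CPM, where URE replicate 2 alone reached into the WT range. The log2 fold change of -2.29 (SE 0.64) did not pass (adjusted p = 0.0629, edgeR). It was -2.63 with the replicate block (adjusted p = 0.0324), -3.29 without URE GMP replicate 2 (adjusted p = 0.0051) and -2.26 in DESeq2 (adjusted p = 0.00368), within a range of 0.00212 to 0.497 over 17 alternatives. The 6 monocyte markers stood apart in that library too, at 700 CPM against 82.7, 83.4 and 122 in the other URE GMPs, 1300 to 1992 in WT GMPs, 56.1 to 114 in WT LSKs and 10.3 to 20.8 in URE LSKs. Of them, 4 of 6 were called lower in URE in each cell type (5 in LSKs and 6 in GMPs with the replicate block), and the part of monocyte progenitors in the *Il6ra* values was not tested.

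*Il6st* (gp130, the chain shared by the interleukin 6 family) was at 141, 60.7, 30.8 and 83.7 CPM in WT LSKs and 85.9, 23.5, 29 and 65.4 CPM in URE LSKs. The groups overlapped, and although URE was the lower in 4 of 4 same-numbered pairs, the log2 fold change of -0.67 (SE 0.51) did not pass (adjusted p = 0.691, and 0.0933 with the replicate block, edgeR). WT GMPs held 181, 56.6, 33 and 95.6 CPM and URE GMPs 9.11, 13.6, 4.56 and 8.72 CPM. All URE GMPs were below all other libraries, 10.3-fold under WT in the fit (log2 -3.36, SE 0.55, adjusted p = 0.00558, edgeR), at -3.87 in replicates 1 and 4 and -2.44 in 2 and 3. Fitted with replicates 2 and 3 alone, it was -2.34 and the call was lost (adjusted p = 0.145, edgeR). The adjusted p ran from 6.38e-09 to 0.145 over 17 alternatives. The summed monocyte markers given above were also lower in URE GMPs than in WT GMPs (82.7 to 700 CPM against 1300 to 1992), and URE GMP replicate 2 was the highest of its group for both. Their part in the *Il6st* values was not tested. GMPs against LSKs was 0.20 in WT (SE 0.57, adjusted p = 0.836, edgeR), with a sign that turned in some fits without 1 library, and -2.55 in URE (SE 0.48, adjusted p = 0.00533, edgeR). The genotype effect in GMPs minus that in LSKs was -2.71 (SE 0.80) and did not pass the unpaired test (adjusted p = 0.127), but it was -2.51 and passed with the block (adjusted p = 0.00554, edgeR), a fit that called 2.6% of genes with a negative and 3.97% with a positive difference (6.57% in either direction). In WT LSKs, URE LSKs and WT GMPs the gap between the replicate sets was larger for *Il6st* than for the other 9 receptors. Replicates 1 and 4 were above 2 and 3 by 1.33 on the log2 scale in WT LSKs, 1.52 in URE LSKs and 1.61 in WT GMPs, and by 0.17 in URE GMPs.

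**Figure D3:**
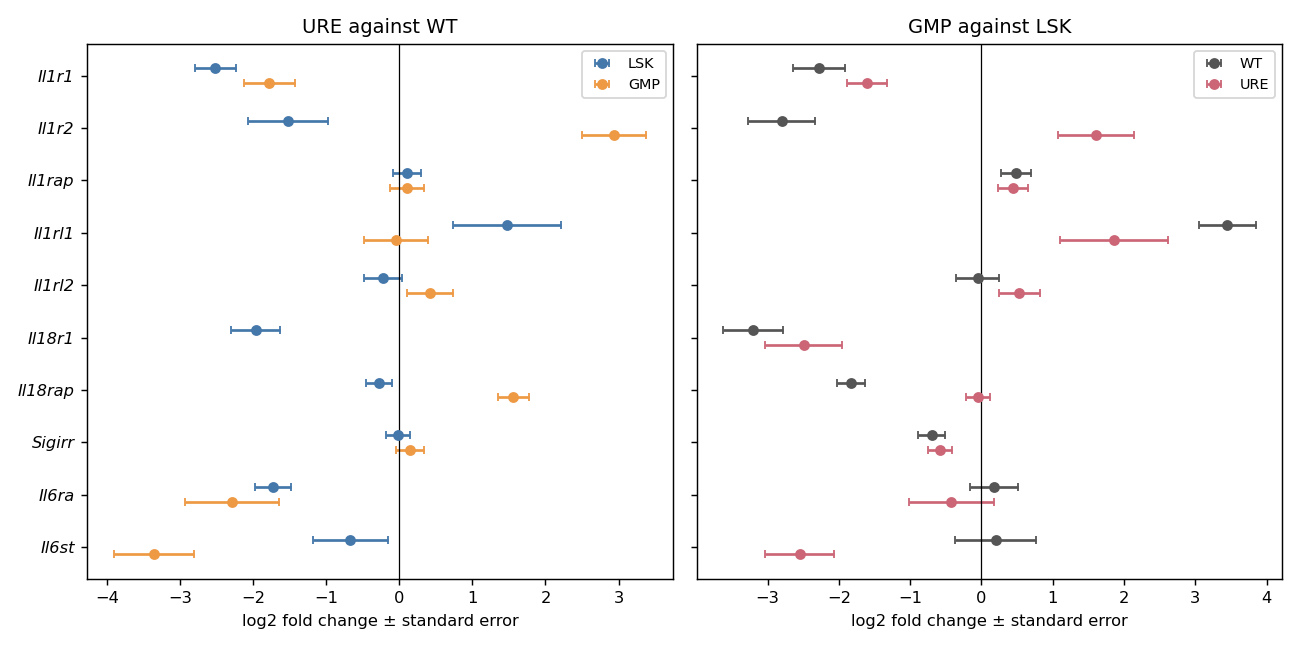
Fitted log2 fold change with its standard error (horizontal axis) of each receptor, URE against WT in LSKs and GMPs on the left and GMPs against LSKs in WT and URE on the right; *Il18r1* has no value in GMPs because it was not fitted there. *Il1r2* lies at -1.53 in LSKs and 2.94 in GMPs, and *Il6st* at -0.67 and -3.36.

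Between cell types, 4 of the 9 counted receptors (*Il1r1*, *Il1r2*, *Il18r1*, *Sigirr*) were lower and *Il1rl1* was higher in GMPs than in LSKs of WT mice, beside 15.8% of 14767 genes called lower and 11.5% higher (27.3% in either direction). In URE, 3 of 9 were lower (*Il1r1*, *Il18r1*, *Il6st*), beside 12.6% of 14395 genes called lower and 9.2% higher (21.8% in either direction). With the replicate block *Il1r2* and *Il1rl1* were called higher there as well, beside 13.3% of genes called higher and 18.6% lower in that fit (31.9% in either direction), and in WT the counts of receptors stayed at 1 higher and 4 lower, beside 15.8% and 25.1% (40.9% in either direction). In each of these comparisons 5 of the 9 did not overlap between cell types, beside 31.4% of genes in WT and 26.6% in URE. The genotype comparisons share libraries with the cell type comparisons, so that a low WT GMP value enters both. *Il18r1*, counted as lower in GMPs of either genotype, passed the filter of the cell type comparisons through its LSK counts alone. *Il1r2*, counted as lower in WT GMPs, met the filter of the WT comparison only with its LSK libraries.

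Levels of different genes were compared as CPM per kb of exon. *Sigirr* was the most abundant receptor transcript per length in every group, at 31.1 CPM per kb in WT LSKs, 31.4 in URE LSKs, 19.3 in WT GMPs and 21.6 in URE GMPs, above all libraries of the next gene except in WT GMPs, where *Il6st* (8.26) overlapped it. In WT LSKs *Il1r1* (14.5), *Il18rap* (9.8) and *Il6st* (7.13) followed, each overlapping its neighbour, then *Il1rl2* (3.13), *Il1r2* (2.92) and *Il1rap* (2.56), which overlapped, then *Il18r1* (1.42) and *Il6ra* (1.18), and last *Il1rl1* (0.182), below all others. In URE LSKs *Il1r1* took the sixth place, at 2.57 CPM per kb, overlapping *Il1rl2* (2.73), and *Il6ra* (0.364) and *Il18r1* (0.368) were last, within each other's range. In WT GMPs the middle of the order was close, from *Il1rap* (3.63) over *Il1rl2* (3.03), *Il1r1* (3) and *Il18rap* (2.77) to *Il1rl1* (2), with *Il1r2* (0.421) and *Il18r1* (0.154) last. In URE GMPs *Il18rap* (8.22) was second without overlap on either side, the decoy *Il1r2* (3.26) stood above *Il1r1* (0.874) without overlap, and *Il6st* (0.811) was eighth. In WT LSKs the same pair stood at 14.5 for *Il1r1* and 2.92 for *Il1r2*, also without overlap and in the other order. These ratios depend on the transcript length assumed, since the union of *Il1rap* exons is 11360 bp and its longest transcript 4520 bp.

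**Figure D4:**
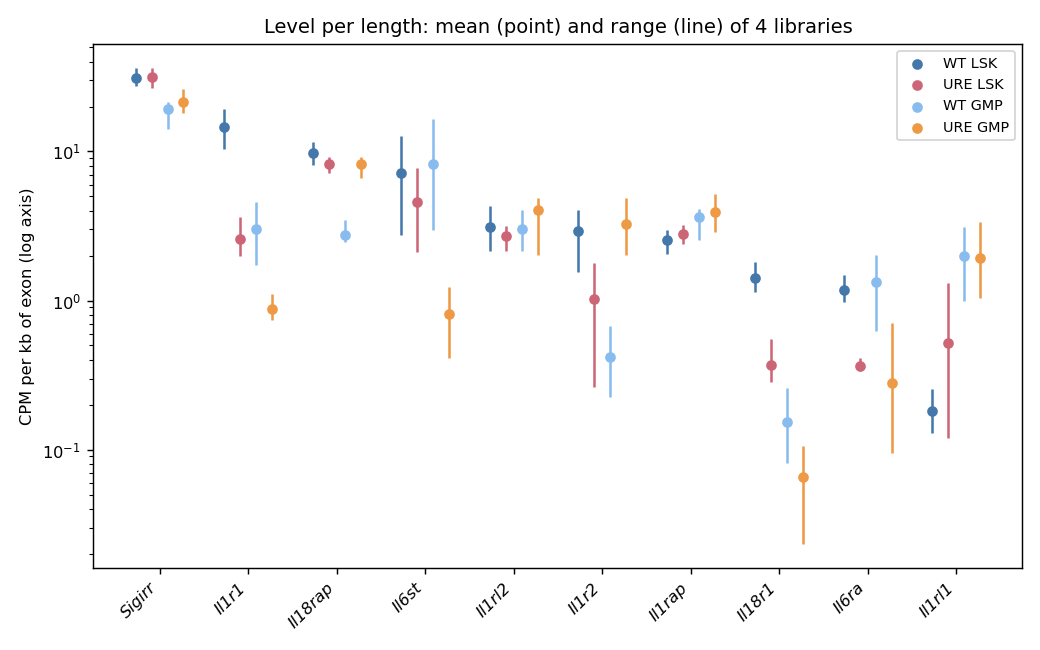
Mean (point) and range (line) over 4 libraries of each receptor's CPM per kb of exon (vertical log axis) in the 4 groups. *Sigirr* is highest in each group, and *Il1r1* and *Il6st* each have their lowest level in URE GMPs, at 0.874 and 0.811 CPM per kb.

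Within the chromosome 1 cluster the genotype effects did not run in 1 direction. In LSKs *Il1r1* and *Il18r1* were called lower. *Il1rl2* (log2 -0.22) between them was not called. Nor was *Il1rl1* next to *Il18r1* (log2 1.47, and 0.44 without URE LSK replicate 3). In GMPs *Il1r2* was called higher and its neighbour *Il1r1* lower. Of the 3 protein-coding genes on either side, *Rfx8*, *Map4k4*, *Slc9a2* and *Mfsd9* were fitted, and none was called between genotypes in either cell type (edgeR). Their log2 fold changes were 0.29, 0.26, 1.49 and 0.09 in LSKs and 0.90, -0.43, 0.62 and 0.22 in GMPs. *Gm3646* and *Slc9a4* had 0 counts in every library.

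**Figure D5:**
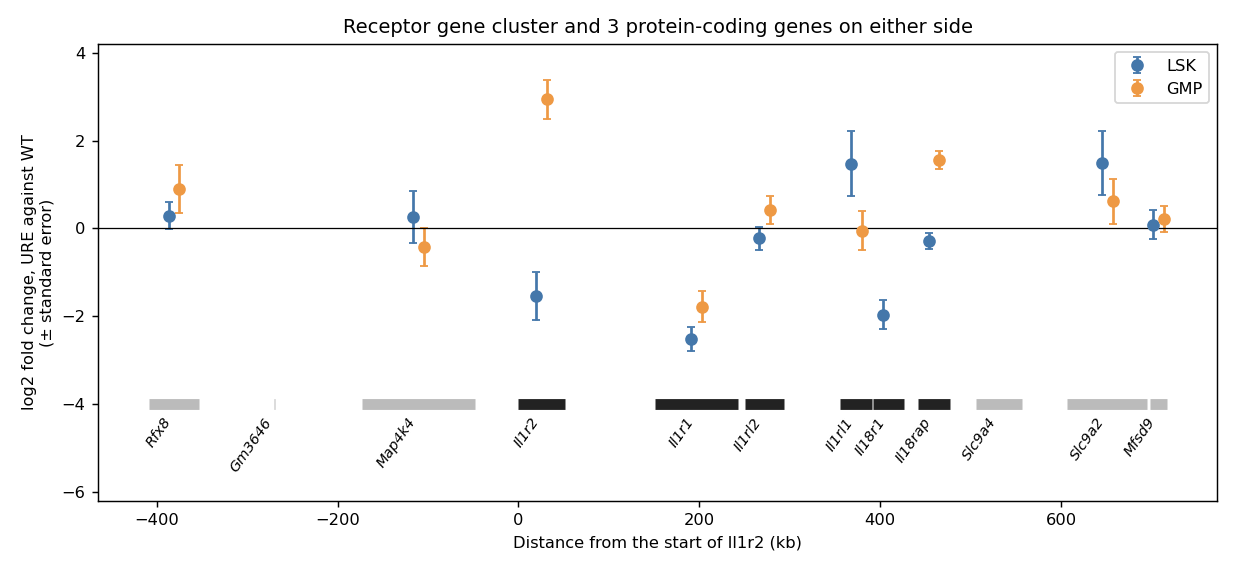
Log2 fold change of URE against WT with its standard error (vertical axis) at each gene of the chromosome 1 receptor cluster (black bars) and 3 protein-coding genes on either side (grey bars), against distance from the start of *Il1r2* in kb. *Il1r2* and *Il1r1* are next to each other, at 2.94 and -1.78 in GMPs.

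The other genes of these pathways were counted from lists of ligands, further receptor chains, signalling proteins and processing enzymes, and each count reads against the 3.76% of genes called lower and 2.38% higher in LSKs and 3.63% and 4.67% in GMPs. With the replicate block these shares were 5.62% and 3.83% in LSKs and 6.82% and 9.52% in GMPs. Of 16 ligands and antagonists in the table, 6 were tested in LSKs and 3 of them were lower in URE, among them *Il18* (27.7 ± 5.88 CPM in WT and 8.91 ± 1.90 in URE, log2 -1.67, SE 0.26, adjusted p = 0.00498, edgeR) and *Ebi3*, a chain of IL27 that signals through gp130 (log2 -4.71, SE 0.40, adjusted p = 0.000239, edgeR). In GMPs 1 of 5 was lower, *Ebi3* (log2 -4.77, adjusted p = 0.000283, edgeR). *Il1a*, *Il1b*, *Il1rn*, *Il33* and *Il6* were too low to be fitted in any comparison between genotypes within a cell type. *Il18bp*, the soluble inhibitor of IL18, had genotype effects that differed between cell types by 2.09 (SE 0.47, adjusted p = 0.0436, edgeR), with 8.31 ± 1.70 CPM in WT LSKs, 3.67 ± 1.96 in URE LSKs, 2.81 ± 0.732 in WT GMPs and 5.29 ± 0.276 in URE GMPs. In LSKs it was lower in URE with the replicate block (log2 -1.33, adjusted p = 0.0458, edgeR) and did not pass without it (adjusted p = 0.136).

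Among 6 further chains tested in LSKs, 2 were lower, *Lifr*, a partner of gp130 (log2 -3.93, SE 0.98, adjusted p = 0.0455, edgeR), and *Il12rb2* (log2 -5.30, SE 0.94, adjusted p = 0.00955, edgeR). In GMPs 2 of 5 were lower, *Il12rb2* (log2 -5.04, adjusted p = 0.000465, edgeR) and *Lifr*, and 1 was higher (2 with the replicate block), *Il27ra*, a gp130 partner that binds IL27 (log2 1.10, SE 0.27, adjusted p = 0.0374, edgeR). *Lifr* and *Il12rb2* passed the filter through their WT counts alone. *Lifr* held 0, 19, 0 and 11 counts in URE LSKs and 2, 3, 8 and 0 in URE GMPs. *Il12rb2* held 1, 3, 37 and 4 counts in URE LSKs and 5, 12, 4 and 3 in URE GMPs. The sizes of these falls rest on counts near the floor, and no support is drawn from these calls. Of the signalling genes, *Nfkbia*, the inhibitor of NF-kappaB, was lower in URE LSKs (log2 -0.97, adjusted p = 0.0364, edgeR), and *Myd88*, *Jak1* and *Stat3* did not pass the test. In GMPs 1 of 31 passed in the unpaired fit, a share near that of all genes, *Irak3*, a brake on interleukin 1 signalling, which was higher in URE (90.0 ± 15.5 against 161 ± 27.7 CPM, log2 0.83, SE 0.18, adjusted p = 0.0208, edgeR). With the replicate block 4 of the 31 were higher and 2 lower in URE GMPs, shares near the 9.52% and 6.82% of all genes, *Socs3*, the feedback inhibitor of gp130 signalling (log2 2.65, adjusted p = 0.000682), *Irak2* (log2 1.12, adjusted p = 0.00645) and *Tnfaip3* (log2 1.06, adjusted p = 0.0252) joining *Irak3*, and *Tab2* and *Chuk* being lower (edgeR). In LSKs 1 of 32 signalling genes was higher with the block, *Socs3* (log2 1.30, adjusted p = 0.00494, edgeR), and 3 were lower. These counts stand beside 3.83% and 5.62% of all genes. *Irak3* was among those lower in URE LSKs (log2 -0.68, adjusted p = 0.0396 with the block and 0.101 without it, edgeR). The genotype effects on *Irak3* differed between cell types by 1.49 (SE 0.28, adjusted p = 0.0158, edgeR). Of 11 processing genes tested, 3 were lower in URE LSKs (5 with the block), among them *Casp1*, which cleaves IL1 beta and IL18 (log2 -1.11, adjusted p = 0.0371, edgeR), and *Nlrc4*, an inflammasome sensor (log2 -2.60, adjusted p = 0.0126, edgeR). *Nlrc4* was at 0.312 to 1.26 CPM in URE LSKs, near the floor. *Nlrc4* was the 1 of 11 that passed in GMPs (log2 -1.96, adjusted p = 0.00733, edgeR). The list medians were -1.44, -1.53, -0.09 and -0.57 in LSKs and -0.48, -0.16, 0.09 and -0.25 in GMPs for ligands, chains, signalling and processing, against 0.00 and 0.01 over all genes.

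Genes whose log2 CPM followed a receptor most closely over the 16 libraries are given by Pearson's r among 11438 genes, as a description, since libraries of a group share genotype, cell type and depth. For *Il18rap* they were *Tinagl1* (0.931), *Islr* (0.914), *1500009L16Rik* (0.908), *Rnf167* (0.905) and *Sstr2* (0.900). For *Il18r1* they were *Ifit1* (0.976), *Gbp9* (0.963), *Gm4951* (0.963), *Usp18* (0.960) and *Trim47* (0.959). For *Il1r1* they were *Rgl1* (0.972), *Mpzl1* (0.968), *Dhx58* (0.963), *Clnk* (0.946) and *Tet1* (0.941), and for *Il1rl1* *1700010I14Rik* (0.923), *Csrp3* (0.919), *Bora* (0.909), *Cpa3* (0.904) and *Morrbid* (0.892). *Ifit1*, *Gbp9* and *Usp18* are known as interferon-induced genes, and *Cpa3* is one of the mast cell markers above. These are examples from the lists, and they do not set *Il18r1* apart from the other receptors.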

How the data were processed

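Polyadenylated RNA of 16 mouse bone marrow samples (LSKs and GMPs of WT and URE mice, 4 each) was sequenced from up to 10 ng of RNA with an unstranded low-input kit without molecular identifiers. The authors quantified reads with Salmon (GRCm38 in the submitters' processing notes, version and annotation release not given in the sources used here), summed transcripts per gene and deposited expected counts as whole numbers for 54347 genes. Gene models were those of GENCODE M21, which holds 54094 of the identifiers. The receptors and lists were chosen with earlier results of these data known.

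Each comparison was fitted here with edgeR 4.0.16 (R 4.3.3, TMM, filterByExpr, quasi-likelihood test, Benjamini-Hochberg over all genes) on the groups compared, and the interaction on all 16 libraries. Calls needed an adjusted p under 0.05 with a change above 1.5-fold (interaction, adjusted p alone). Standard errors follow from the log2 fold change and the F statistic. CPM uses TMM factors over all libraries. Genes too low for the fit had exact permutation tests of log2 CPM (prior count 2). Total counts were 20028302 to 29128858, and replicates of a group differed beyond counting error (chi-square per degree of freedom at least 32.4). Same-numbered libraries of compared groups deviated together (correlations 0.28 to 0.77), so the replicate number was also fitted as a block, and that value is given where it changes a receptor's call and beside some list counts. Other alternatives were DESeq2 1.42.0, RLE factors, other filters, a joint fit, either replicate set, a Y-linked covariate, other lengths and leaving out each library. The procedure was tested on simulated data. Named genes outside the 10 are *Spi1*, gate genes, cell type markers, called list genes averaging 1 log2 CPM or more, flanking genes and the 5 genes most like a receptor. *Lifr* in GMPs, *Retnlg* and list genes that did not pass, or passed with the block alone, were named after their values were seen. Promoters are from RefSeq. Protein sequences were not used here, and the result of 1 list gene is not reported here. Whether LSKs and GMPs of 1 number came from 1 mouse is not stated. WT and URE libraries of 1 number came from different mice, and their shared number is not stated to mark a pair. Plots used matplotlib 3.10.9.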

Additional observations from a re-analysis of the deposited data

Results flagged for a closer look

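In a test for single libraries that stand apart (Dixon's ratio at the 95% level), 5 of 48 groups of 4 libraries had one, where 2.4 would be met by chance. *Il1rap* in WT GMPs was low in replicate 3, at 28.8 CPM. *Il1rl2* in URE GMPs was low in replicate 3, at 13.8 CPM. *Il18r1* in URE LSKs was high in replicate 3, at 2.65 CPM, which was still below every WT LSK. *Sigirr* in WT GMPs was low in replicate 1, at 42.8 CPM. *Il6ra* in URE GMPs was high in replicate 2, at 6.16 CPM, the library with the most monocyte marker transcript of its group.

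The genotype effect differed between GMPs and LSKs for *Il1r2*, by 4.44 on the log2 scale, and for *Spi1*, by 2.64 (adjusted p = 0.0218, edgeR interaction test). For *Il18rap* the difference was 1.82, the value for which this gene was chosen, and it is given without a test.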

How the results depend on the processing

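Leaving out each library in turn kept the number of receptors called lower in URE LSKs at 3 to 3, higher in URE GMPs at 1 to 1, and called in the interaction at 1 to 1 higher and 0 to 0 lower. It moved the number lower in URE GMPs to 1 to 3 (1 without URE GMP replicate 4), higher in GMPs of WT to 1 to 2 (2 without WT GMP replicate 3) and lower to 3 to 4, and higher in GMPs of URE to 0 to 2 and lower to 3 to 5 (5 without URE GMP replicate 2). With the replicate block 2 receptors were higher in GMPs of URE (0 without it), beside 13.3% of all genes (9.2% without it), and 1 lower in the interaction (0 without it), *Il6st*, beside 2.6% (0.351% without it), and the block added *Il1r2* in LSKs and *Il6ra* in GMPs to those lower in URE. It changed no other call of a receptor. DESeq2 gave 2 and 1 for the same counts, and the joint fit gave 2 for the first. With replicates 1 and 4 alone 2 receptors were lower and 3 higher in GMPs of WT and of URE in turn, and 0 higher and 1 lower in the interaction. With replicates 2 and 3 alone 1 was lower in URE LSKs, 0 higher and 0 lower in URE GMPs, 0 lower in GMPs of URE and 0 higher in the interaction. These fits hold fewer samples. RLE factors, the other filters, the adjusted p alone and the Y-linked covariate left each count within 1.5 times.

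Signs turned for values that were not called in the fit as reported, of which 1, *Il6ra* in GMPs against LSKs of URE, was called without URE GMP replicate 2 (-1.41, adjusted p = 0.0451, edgeR). For URE against WT in LSKs *Sigirr* was 0.01 (DESeq2, RLE, joint fit, replicates 2 and 3) and 0.00 (Y-linked covariate), *Il1rap* -0.05 (replicates 1 and 4) and *Il1rl2* 0.09 (replicates 2 and 3). In GMPs *Il1rap* was -0.10 (replicates 1 and 4) and -0.01 (Y-linked covariate), and *Il1rl1* 0.14 and 0.20 in the same fits. For GMPs against LSKs *Il1rl2* in WT was 0.02 (DESeq2, RLE) and 0.03 (replicates 2 and 3), and *Il6ra* in URE 0.23 (replicates 2 and 3). The interaction of *Il1rap* was 0.07 (replicates 2 and 3). Without 1 library, the values that turned ran from -0.08 to 0.07 (*Sigirr*, LSKs), -0.51 to 0.23 (*Il1rl1*, GMPs), -0.08 to 0.20 (*Il1rap*, GMPs), -0.34 to 0.64 (*Il6st*, WT), -0.21 to 0.14 (*Il1rl2*, WT), -0.07 to 0.47 (*Il6ra*, WT) and -0.19 to 0.08 (*Il1rap*, interaction). The cause was not tested. Depth limits *Il18r1* in GMPs, at 2 to 30 counts per library.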
